A study of Bombus terrestris with 33 samples.

Results

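Brains of 22 bumblebee queens (Bombus terrestris) from colonies C2 and C3 were compared after and before hibernation, with 11 queens at each stage. These were the 22 of 33 sequenced queens whose colonies had been sampled at both stages, so that stage could be tested with colony held as a term. The groups were pooled across the outcome of the preceding step, failed or successful, in order to find changes that both outcomes shared. The 11 other queens came from colony C7, sampled only before hibernation, and colony C9, sampled only after it.

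All queens were adult females of commercial colonies (Koppert BV). The gynes, virgin females that can become queens, were offered males at 5 days of age. FM queens were exposed to males and failed to mate (n = 6, 3 from C2 and 3 from C3). SM queens had mated and were snap-frozen 3 days after mating (n = 5, 2 from C2 and 3 from C3). The queens sampled after hibernation had all mated, had spent 8 weeks at 5 °C and were frozen 1 month after leaving the cold. FR queens then had undeveloped ovaries (n = 6, 3 from each colony), and in SR queens the ovaries were fully grown and held mature eggs (n = 5, 2 from C2 and 3 from C3). The labels estimate the age at 11 to 27 before hibernation and at 91 to 99 after it, with no unit. Stage was therefore joined to age, to cold storage and to the later housing, and in the failed queens also to mating, since FM queens were unmated and FR queens were mated. In both outcomes it was also joined to the grouping by ovaries, made only after hibernation: undeveloped in FR and fully grown in SR queens. These factors cannot be told apart in this design.

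A bumblebee queen mates soon after adult emergence, stores the sperm and passes the winter alone in diapause, a state of lowered metabolism. After winter she normally activates her ovaries and founds a colony without workers, so that her brain passes from the behaviour of a young virgin to that of a solitary founder. The brain is bulk tissue, in which fewer cells of a type and less RNA per cell cannot be told apart.

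Each library held the mRNA of 1 brain, and total counts ranged from 42858092 to 56845862. The features are contigs, of which 5680 of 10672 had enough reads to be tested. They held 99.99% of the reads. None of the 10672 contig identifiers matched the 13398 genes of the reference table. The contigs are therefore given without gene names, no gene list could be counted, and the labelled tissue could not be checked against markers. The most abundant contig took between 0.00794% and 11.9% of a library's reads. Its share was 0.116%, 2.41% and 11.9% in the lowest, median and highest FM queen, and 0.0728%, 0.784% and 6.17% in SM queens. After hibernation it was 0.00794%, 0.0675% and 4.78% in FR queens, and 3.84%, 9.07% and 11.2% in SR queens. It did not pass the test for the stage effect (edgeR adjusted p = 0.907) or for the difference between outcomes (edgeR adjusted p = 0.130).

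Stage did not separate the queens along the main axis of variation. Levels are given as CPM, counts scaled to a common library size. On component 1 of a principal component analysis of log2 CPM, with 34.7% of the variance, the mean score was -6.14 ± 22.0 before and 6.14 ± 30.4 after hibernation (SD, n = 11 each). The difference of 12.3 did not pass a two-sided exact permutation test of stage within colony and outcome (p = 0.246, adjusted p = 0.368 over 6 library measures). After hibernation the 2 outcomes lay apart on this axis, at 30.8 ± 15.6 in FR (SD, n = 6) and -23.4 ± 1.32 in SR queens (SD, n = 5). The queens sampled before hibernation spanned -35.6 to 32.0 and overlapped with both later groups. The second component (12.6% of the variance) did not pass either (exact permutation p = 0.954, adjusted p = 0.954), and held FM queen 6 at -65.0, with the next queen at -13.1. Queens are numbered here as the labels number the replicates.

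**Figure D1:**
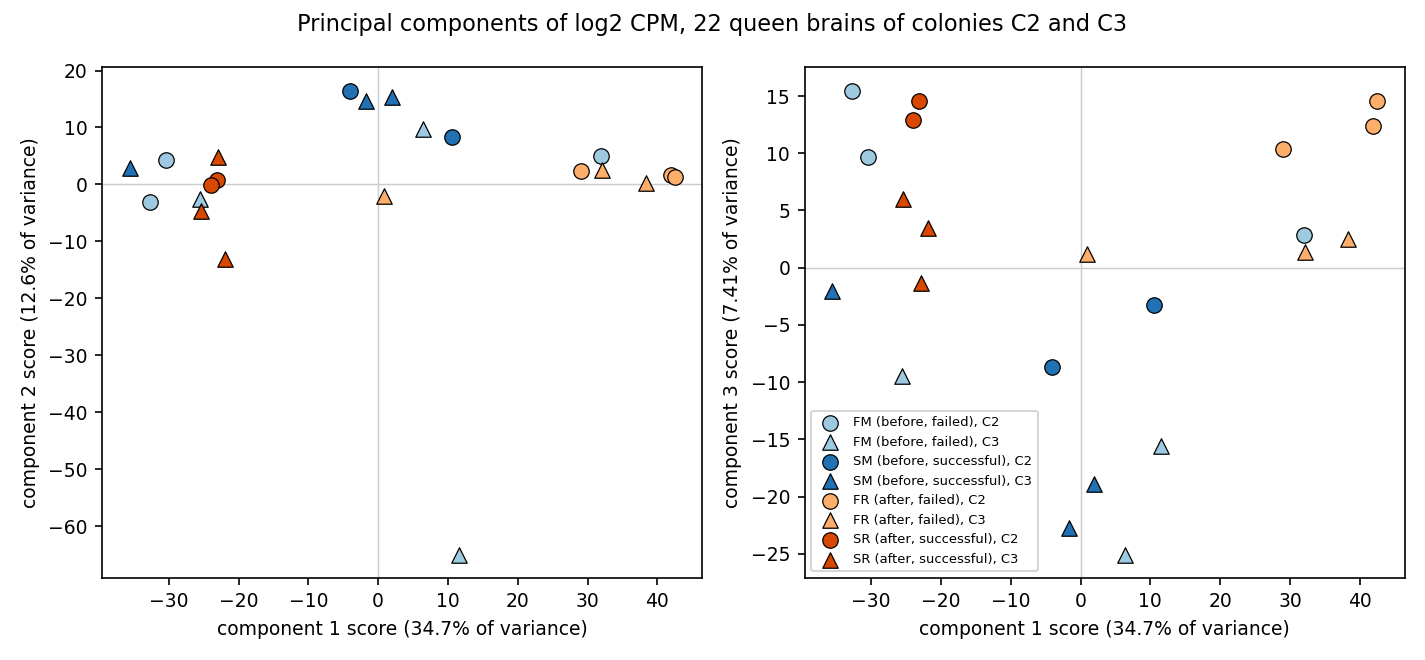
Scores of the 22 queens on principal components 1 and 2 (left) and 1 and 3 (right) of log2 CPM, unitless, with 1 point per queen, colours for the 4 groups and marker shapes for the colonies. FR and SR queens lie at opposite sides of component 1, and the stages differ on component 3, at means of -7.08 before and 7.08 after hibernation.

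The third component, with 7.41% of the variance, was the measure that differed by stage. The mean score was -7.08 ± 13.1 before and 7.08 ± 5.98 after hibernation (SD, n = 11 each; exact permutation p = 0.000417, adjusted p = 0.0025 over 6 measures). Queens before hibernation ranged from -25.1 to 15.5 and queens after it from -1.33 to 14.5, so the stages overlapped. The difference had the same direction within both colonies and outcomes. In C2 the means were 9.33 in FM and 12.4 in FR queens, and -6.00 in SM and 13.7 in SR queens. In C3 they were -16.7 in FM and 1.68 in FR queens, and -14.6 in SM and 2.72 in SR queens. The colonies were thus also offset on this axis. Without FM queen 6 the components changed order: the second then carried the stage difference (adjusted p = 0.00175) and the third did not (difference -6.16, adjusted p = 0.276).

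No other library measure differed by stage beyond the test. The number of contigs with a read averaged 6907 ± 172 before and 7006 ± 141 after hibernation (SD, n = 11 each; exact permutation p = 0.149, adjusted p = 0.368). The 10 most abundant contigs held 12.6 ± 3.97% of the reads before and 13.6 ± 4.11% after (SD, n = 11 each; exact permutation p = 0.612, adjusted p = 0.735). Queens were less alike before hibernation. The median over contigs of the SD of log2 CPM, taken around the mean of group and colony, was 0.380 before and 0.260 after, a ratio of 1.46. It was highest in FM queens at 0.388, followed by 0.283 in SM, 0.245 in FR and 0.219 in SR queens, and the order was the same among the 2953 contigs with at least 5 CPM. No test was made of this spread, and it was not recomputed without FM queen 6, which stood apart on the second component.

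The stage effect shared by both outcomes was tested with colony and outcome as terms. Few contigs passed, and most of those changed by less than 2-fold. The quasi-likelihood test of edgeR called 48 of 5680 contigs at an adjusted p of 0.05 (0.845%), 31 higher (0.546%) and 17 lower (0.299%) after hibernation. At an unadjusted p of 0.05 the number was 955. The called contigs had a median absolute log2 fold change of 0.55, between 0.15 and 2.33, against 0.15 over all tested contigs. Of these, 6 were over 2-fold higher and 0 over 2-fold lower, and all 6 had a mean under 5 CPM, between 0.151 and 3.18. The median 95% interval of the fold change at 5 CPM or more reached 1.14-fold in each direction.

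The calls were spread over the whole range of abundance. In 4 bins of 1420 contigs, from the least to the most abundant, 7, 12, 11 and 18 were called. Their median absolute log2 fold change fell with abundance, from 1.12 over 0.69 and 0.55 to 0.29, while the median standard error of all contigs went from 0.31 to 0.07. The calls among scarce contigs were thus of larger changes.

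Of the called contigs that averaged 5 CPM or more and moved one way in each colony and outcome, Contig1083 and Contig4971 rose most. Contig1083 had 3.40, 4.48 and 6.78 CPM in the lowest, median and highest queen before hibernation and 5.02, 8.58 and 14.8 CPM after it. After hibernation, 9 of 11 queens were above the highest queen before it, and the exceptions were FR queen 32 (5.74 CPM) and SR queen 43 (5.02 CPM). The log2 fold change was 0.97 ± 0.15 (SE; edgeR adjusted p = 0.00491). It was 1.08 in the failed and 0.85 in the successful queens (edgeR adjusted p = 0.00497 and 0.127), so the change in successful queens did not pass.

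Contig4971 had 19.4, 39.6 and 71.1 CPM in the lowest, median and highest queen before and 37.9, 65.1 and 97.2 CPM after hibernation. The stages overlapped, with 4 of 11 later queens, all FR, above every earlier queen. The log2 fold change was 0.79 ± 0.17 (SE; edgeR adjusted p = 0.0321). It was 0.71 in the failed and 0.89 in the successful queens (edgeR adjusted p = 0.0406 and 0.147). The shared call was lost without any 1 of FM queen 2 or 5, SM queen 16, FR queen 27, 28, 31, 33 or 36, or SR queen 43, 44 or 45, at log2 fold changes of 0.76 to 0.80 and adjusted p of 0.0505 to 0.0649.

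Contig527 and Contig9195 fell most within the same limits. Contig527 had 4.84, 6.72 and 11.4 CPM in the lowest, median and highest queen before hibernation and 2.46, 4.42 and 5.20 CPM after it. After hibernation, 10 of 11 queens were below every earlier queen, the exception being the SR queen with 5.20 CPM. Its log2 fold change was -0.70 ± 0.11 (SE; edgeR adjusted p = 0.00491). Contig9195, a far more abundant contig, had 611, 1032 and 1500 CPM in the lowest, median and highest queen before and 516, 647 and 798 CPM after hibernation. The stages overlapped for it, with 3 of 11 later queens below every earlier one. The log2 fold change of Contig9195 was -0.58 ± 0.10 (SE; edgeR adjusted p = 0.00857).

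The 11 queens of one stage did not overlap with the 11 of the other for only 2 of the 5680 tested contigs (0.0352%), against the 0.845% called. Both are named because of these values, not by the naming rule. Contig253 had 95.8, 108 and 114 CPM in the lowest, median and highest queen before hibernation, and 117, 123 and 136 CPM after it. Its log2 fold change was 0.24 ± 0.03 (SE; edgeR adjusted p = 0.00348), or 0.23 in failed and 0.25 in successful queens. Contig3056 had 183, 200 and 226 CPM before and 148, 174 and 180 CPM after hibernation. Its log2 fold change was -0.25 ± 0.04 (SE; edgeR adjusted p = 0.00491). Both contigs thus changed by little, in queens that varied little.

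**Figure D2:**
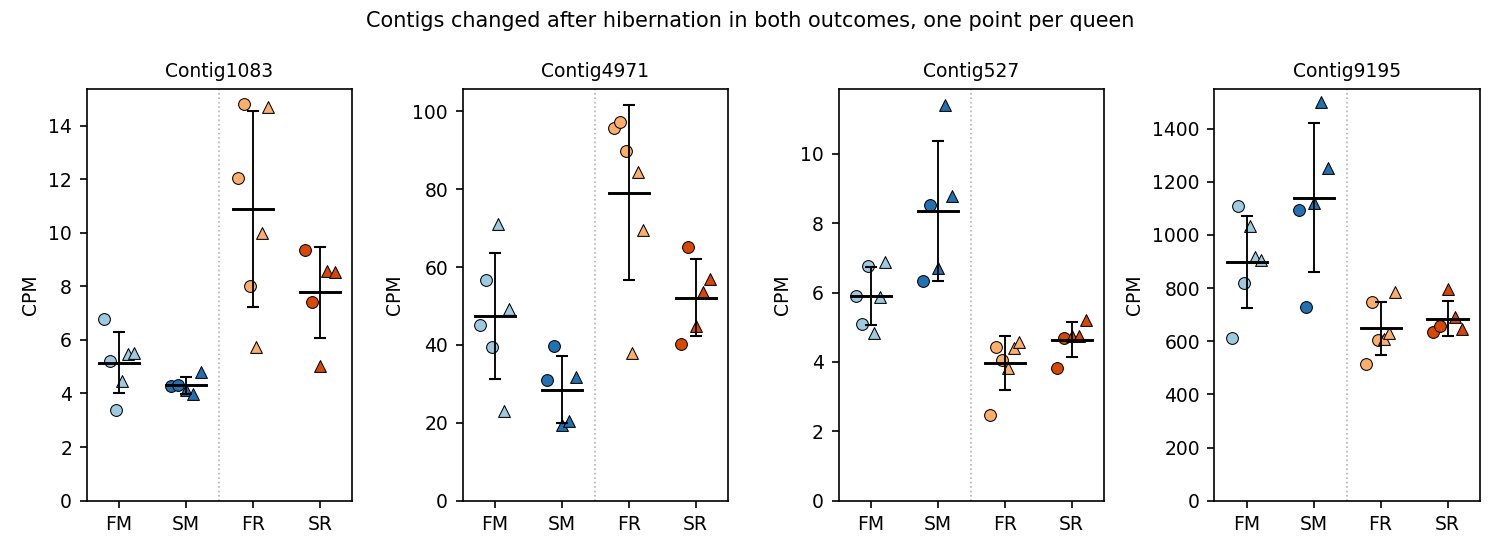
CPM on a linear axis of the 4 contigs named for the shared stage effect, with 1 point per queen in the groups FM, SM, FR and SR, a bar at each group's mean and an error bar of 1 SD. The later groups lie higher for Contig1083 and Contig4971 and lower for Contig527 and Contig9195, with overlap between single queens of the 2 stages for each of the 4.

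The number of calls depended on single queens and on the scaling. It rose to 128 without FM queen 6 and to 83 without FM queen 4. It was 19 to 30 without any 1 of 12 others: 30 without FM queen 2, 26 without 5, 25 without 9 and 24 without 10; 23 without SM queen 16; 19, 28, 23, 21 and 21 without FR queen 27, 28, 31, 33 and 36; and 27 without SR queen 43 or 44. With total counts and no scaling factors 4 contigs were called. Within C2 alone edgeR called 0 contigs (397 at an unadjusted p of 0.05) and within C3 alone 0 (515), from 10 and 12 queens.

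**Figure D3:**
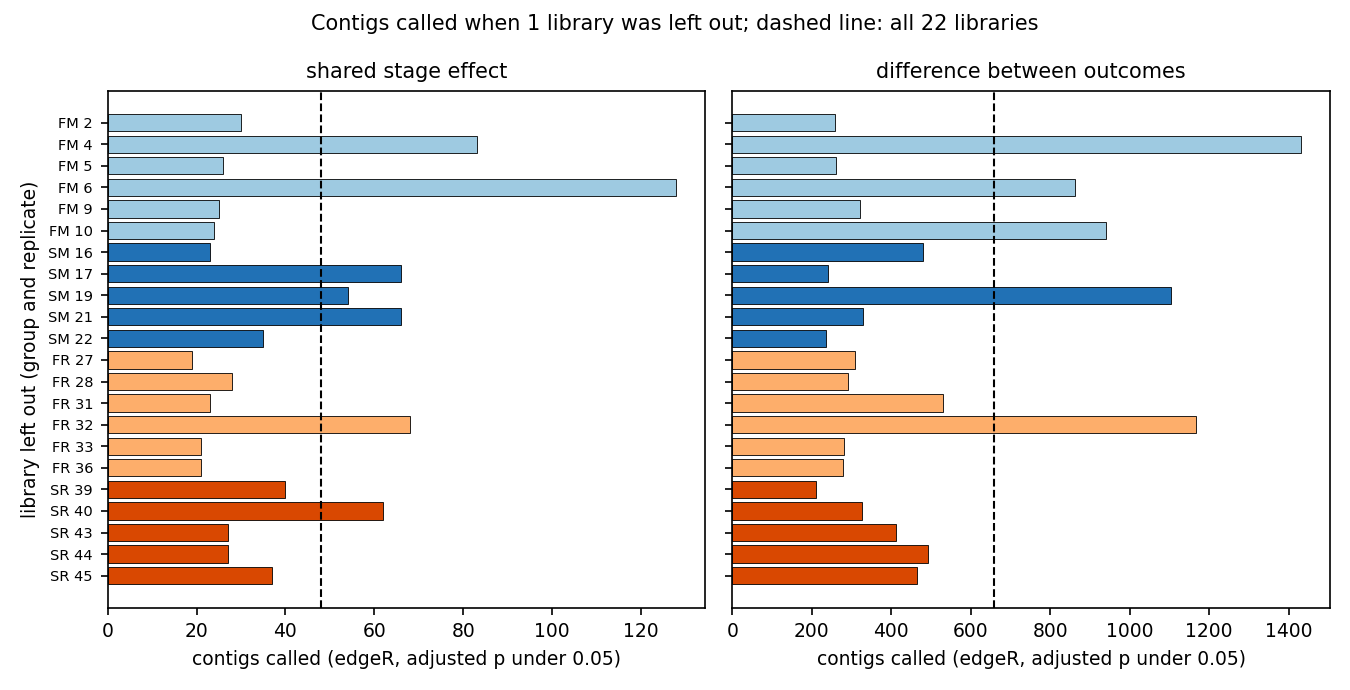
Number of contigs called by edgeR when each of the 22 libraries was left out, for the shared stage effect and for the difference between outcomes, with a dashed line at the number called from all 22 libraries. The counts span 19 to 128 around 48 for the shared effect and 210 to 1432 around 658 for the difference.

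The 48 called contigs had the same sign in failed and in successful queens, a property that 2205 of all tested contigs (38.8%) had, and 47 of them had the same sign in each of the 4 strata of colony and outcome, against 820 (14.4%) of all. The call used the same queens and favours such contigs, so these shares describe the calls and were not tested. The single contig with a mixed sign, Contig339, had a difference of -0.03 log2 CPM in failed queens of C2 and 0.88 in successful queens of C3. It was named after its values were seen. In size, the change was larger in the failed queens for 36 of the 48. Over all tested contigs the median absolute log2 change was also larger in failed queens, at 0.27 against 0.17. In a joint fit of the 4 groups with colony, the change in failed queens was called for 44 of the 48, against 21.5% of all tested contigs. In that fit the change in successful queens was called for 3 of the 48, against 0.158% of all. Contig253 and Contig527 were called in both outcomes. The tests in each outcome reuse the queens of the pooled test.

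The queens of C7 and C9 offered the same measure in animals that the test above had not used. There the stages came from different colonies, so that colony and stage cannot be told apart. Of the 48 contigs, 39 (81.2%) had the same direction in C9 against C7, compared with 59.8% of all tested contigs. The share was 28 of the 31 higher contigs and 11 of the 17 lower ones. Over all tested contigs it was not counted by direction. Of the 6 contigs over 2-fold higher, Contig4479, Contig3009 and Contig9874 had log2 differences of -1.06, -2.06 and -0.14 in C9 against C7. Contig5388, Contig285 and Contig3370 had 0.65, 0.45 and 0.30, and none of the 6 was called there. These 6 were named after their values were seen. Called on their own, the 11 queens of C7 and C9 gave 60 of 5708 contigs (1.05%), 40 higher (0.701%) and 20 lower (0.35%) in C9. This count ranged from 12 to 55 when 1 library was left out. It was 32 without FM queen 15, 18 without SM queen 23, 12 and 35 without FR queen 37 and 38, and 22, 22 and 30 without SR queen 47, 48 and 49.

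Among the 48, 3 contigs passed in both sets of queens with the same sign, where 1.05% of all contigs tested in C7 and C9 passed there. Contig1083 had a log2 difference of 1.31 between C9 and C7 (edgeR adjusted p = 0.0104). The other two, Contig2020 and Contig4035, were named after their values were seen. Contig4971 had a difference of 1.01 there (edgeR adjusted p = 0.197), and Contig9195 one of -0.93 (edgeR adjusted p = 0.290). Contig253 and Contig3056 had differences of 0.21 and -0.18 (edgeR adjusted p = 0.364 and 0.415). Contig527, which was lower after hibernation in C2 and C3, had a difference of 0.01 (edgeR adjusted p = 0.982).

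Whether the stage change differed between the outcomes was tested in a fit of the 4 groups with colony. The difference between the SR minus SM change and the FR minus FM change passed for 658 of 5680 contigs (edgeR adjusted p of 0.05; 11.6%). Of these, 346 (6.09%) had the higher change in successful queens and 312 (5.49%) in failed queens. In the same fit the mean change of both outcomes was called for 83 contigs. The changes had opposite signs in 637 of the 658, where a call on the difference favours opposite signs and 38.8% of all tested contigs had the same sign. Of the 637, 302 were higher after hibernation in failed and lower in successful queens, and 335 the reverse. The median absolute log2 change of the 658 was 0.52 in failed and 0.32 in successful queens, and the failed queens had the larger change in 480. Over all tested contigs this median was also larger in failed queens, at 0.27 against 0.17.

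Of the called contigs with at least 5 CPM and one sign of the difference in both colonies, Contig735 and Contig5138 had the largest difference towards successful queens. Contig735 had 35.4, 1463 and 9285 CPM in the lowest, median and highest FM queen and 41.7, 44.6 and 79.1 CPM in FR queens. SM queens had 51.01, 57.6, 91.4, 96.6 and 1839 CPM, and SR queens 796, 1052, 1519, 3352 and 3857 CPM. FR queens were thus uniformly low and SR queens uniformly high, while both earlier groups held queens at either level. The log2 change was -5.68 ± 1.30 in failed queens (SE; edgeR adjusted p = 0.00949) and 2.39 ± 1.23 in successful queens (SE; edgeR adjusted p = 0.435), with a difference of 8.08 ± 1.81 (SE; edgeR adjusted p = 0.0198). Contig5138 had 0.251, 10.4 and 67.3 CPM in FM and 0.352, 0.499 and 1.06 CPM in FR queens. SM queens had 1.37, 3.04, 3.17, 6.31 and 15.3 CPM and SR queens 10.6, 15.6, 19.2, 23.9 and 35.4 CPM. Here too the later groups did not overlap, and FM queens spanned both. The contigs named for this difference were picked for its size, which favours such separation. The share of all tested contigs with FR and SR queens apart was not counted. The difference was 7.11 ± 1.42 on the log2 scale (SE; edgeR adjusted p = 0.0164).

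Contig2506 and Contig1533 differed most in the other direction within this limit. Contig2506 had 0.0419, 3.39 and 35.4 CPM in FM, 7.92, 18.0 and 28.0 CPM in FR, and 9.92, 17.8, 46.7, 47.6 and 48.6 CPM in SM queens. SR queens had 1.69, 1.95, 3.13, 6.79 and 7.54 CPM, below every FR and SM queen. The log2 difference of the changes was -4.12 ± 1.29 (SE; edgeR adjusted p = 0.0460). This call was lost when any 1 of 17 libraries was left out, at adjusted p of 0.0566 to 0.0877; it held without FM queen 4, 6 or 10, SM queen 19 or FR queen 32. Contig1533 had 1.58, 2.99 and 5.71 CPM in FM, 4.15, 7.25 and 14.8 CPM in FR, and 2.22, 3.06, 5.15, 9.43 and 20.1 CPM in SM queens. SR queens had 2.11, 2.53, 2.67, 3.03 and 3.13 CPM, below every FR queen, and the lowest was also below every SM queen. Its log2 difference was -2.88 ± 0.66 (SE; edgeR adjusted p = 0.0202).

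**Figure D4:**
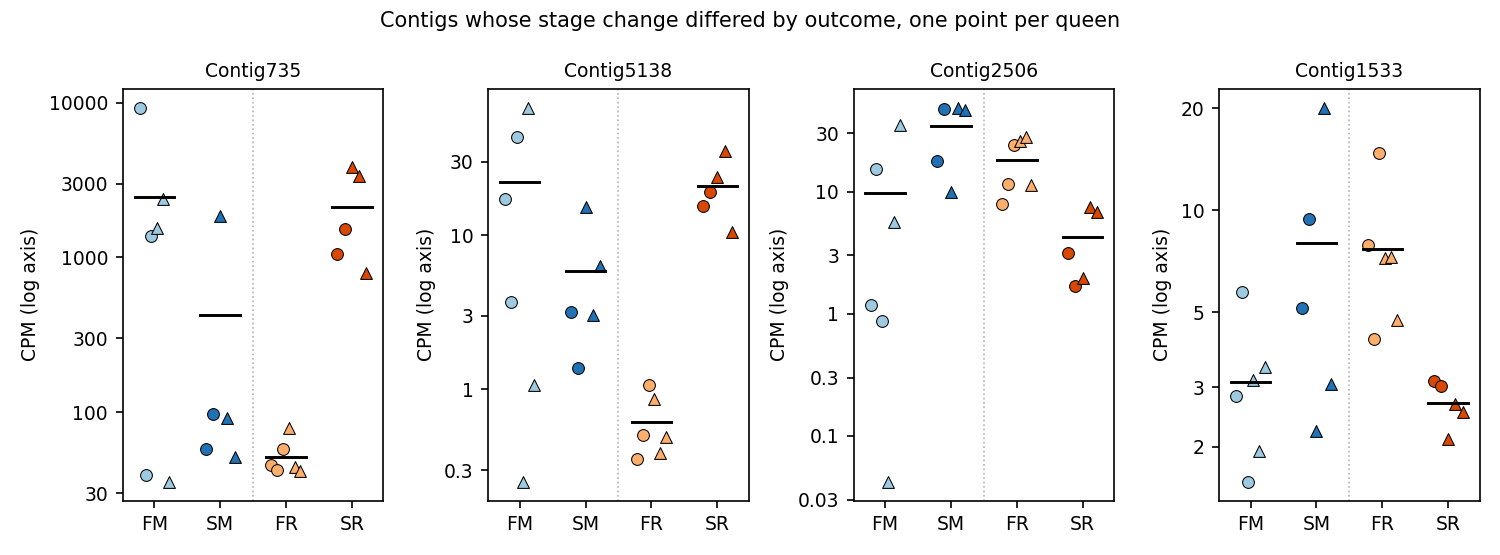
CPM on a log axis of the 4 contigs named for the difference between outcomes, with 1 point per queen in the groups FM, SM, FR and SR, marker shapes for the colonies and a bar at each group's mean. FR and SR queens do not overlap for any of the 4, while the FM queens range from 0.0419 to 35.4 CPM for Contig2506 and from 35.4 to 9285 CPM for Contig735. The choice of contigs by the size of this difference favours such separation.

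The count of 658 moved with single libraries. It rose to 1432 without FM queen 4, to 1105 without SM queen 19 and to 1167 without FR queen 32. It fell to 258, 261 and 322 without FM queen 2, 5 and 9, and to 240, 329 and 236 without SM queen 17, 21 and 22. Without FR queen 27, 28, 33 and 36 it was 309, 291, 280 and 277, and without SR queen 39, 40 and 43 it was 210, 326 and 411. Within C2 or C3 alone, 1 contig was called in each (1349 and 671 at an unadjusted p of 0.05): the contigs behind these were among the 658. The split of 346 and 312 became 254 and 373 under upper-quartile scaling. With total counts it was 104 and 658, with a median log2 difference of -0.30 over all contigs. The 10 most abundant contigs held 13.7 ± 4.79% of reads in FM, 11.3 ± 2.66% in SM, 10.8 ± 2.03% in FR and 16.8 ± 3.58% in SR queens (SD, n = 6, 5, 6 and 5). Without these contigs 641 were called, 307 and 334 in the 2 directions.

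The change in each outcome was also tested, as a contrast in the same fit of the 4 groups with colony. The 2 tests therefore share the spread and the colony term of that fit. FR differed from FM queens in 1219 of 5680 contigs (21.5%), 559 higher (9.84%) and 660 lower (11.6%). SR differed from SM queens in 9 contigs (0.158%), 8 higher (0.141%) and 1 lower (0.0176%), and in 710 at an unadjusted p of 0.05. Passing in one outcome and not in the other is no test of a difference, which the 658 contigs above give. Of the 1219 contigs, 409 (33.6%) had the same sign in successful queens, against 38.8% of all tested contigs. The 559 higher contigs had a median log2 change of -0.07 in successful queens, and the 660 lower ones of 0.07.

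Among the called contigs of at least 5 CPM with one sign in both colonies, Contig8577 and Contig4196 rose most in failed queens. Contig8577 had 0.335, 4.95 and 18.4 CPM in the lowest, median and highest FM queen and 1.47, 16.6 and 87.9 CPM in FR queens. The groups overlapped widely. The log2 fold change was 2.18 ± 0.74 (SE; edgeR adjusted p = 0.0442). The call was lost without any 1 of FM queen 4, 5, 6 or 9, SM queen 17 or 22, FR queen 27, 31, 33 or 36, or SR queen 39, 40 or 43, at adjusted p of 0.0505 to 0.128. Contig4196 had 32.3, 40.2 and 157 CPM in FM and 154, 207 and 278 CPM in FR queens. All FR queens except 1 lay above every FM queen, and FM queen 4 alone reached their range. The log2 fold change was 1.66 ± 0.36 (SE; edgeR adjusted p = 0.00740), against -0.32 ± 0.39 in successful queens (SE; edgeR adjusted p = 0.771). Contig735 and Contig5138, described above, fell most within the same limit, with log2 fold changes of -5.68 and -5.17 (edgeR adjusted p = 0.00949 and 0.00549).

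Within the same limit, Contig5102 and Contig2525 rose most in successful queens. Contig5102 had 31.3, 35.8, 36.3, 36.8 and 63.0 CPM in SM queens and 79.2, 84.8, 85.8, 91.5 and 101 CPM in SR queens. All SR queens were above all SM queens. The choice of the largest rises favours this, and its share over all tested contigs was not counted. The log2 fold change was 1.13 ± 0.16 (SE; edgeR adjusted p = 0.00298). In failed queens it was 0.41 ± 0.15 (SE; edgeR adjusted p = 0.0542), and the difference between outcomes passed (0.72 ± 0.22 SE, edgeR adjusted p = 0.0407). Contig5102 was also among the 48 contigs of the shared effect, at 0.74 ± 0.14 (SE; edgeR adjusted p = 0.0118), so that a shared direction went with an unequal size. Of the 48, 2 were also called for the difference, against 11.6% of all tested contigs, where a call on the shared effect favours like changes. Besides Contig5102 this was Contig5016, named after its values were seen. Its log2 change was 0.54 in failed and 0.17 in successful queens (edgeR adjusted p = 0.00279 and 0.400). The difference was -0.36 ± 0.11 (SE; edgeR adjusted p = 0.0446). Contig2525 had 2863, 3153, 3220, 3354 and 3792 CPM in SM queens and 4038, 4452, 4738, 4822 and 5223 CPM in SR queens, again without overlap. Its log2 fold change was 0.51 ± 0.08 (SE; edgeR adjusted p = 0.00323) in successful and 0.04 ± 0.07 (SE; edgeR adjusted p = 0.731) in failed queens. Contig527 was the only lower contig called, at -0.85 ± 0.17 (SE; edgeR adjusted p = 0.0494), and Contig9195 had a value of -0.72 ± 0.15 (SE; edgeR adjusted p = 0.0544). The call of Contig527 in successful queens held only without FM queen 4, 5 or 6, SM queen 19, or FR queen 27 or 32, and was lost without any 1 of the other 16, at adjusted p of up to 0.122.

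Both counts shifted with the tool, with the colonies used and with single libraries. In failed queens they were 1545 with DESeq2, 2809 with limma voom, 0 in C2 alone (1545 at an unadjusted p of 0.05) and 1 in C3 alone. In successful queens they were 116 with DESeq2, 584 with limma voom, 0 in C2 alone (441 at an unadjusted p of 0.05) and 2 in C3 alone. The failed queens gave 616, 580 and 745 contigs without FM queen 2, 5 and 9, and 660, 688, 667 and 612 without FR queen 27, 28, 33 and 36. The successful queens gave 56 without SM queen 19, 28 without FM queen 6 and 26 without FM queen 4. They gave 3 to 5 without FM queen 10, SM queen 16, 21 or 22, FR queen 28, 31, 33 or 36, or SR queen 40, 43, 44 or 45. Upper-quartile scaling turned the balance in failed queens to 673 higher and 435 lower, and total counts to 546 and 156, with median shifts over all contigs of 0.07 and 0.15 on the log2 scale. Fitted with only FM and FR libraries, 118 contigs were called, and with only SM and SR libraries 48.

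Across the 5680 contigs, the stage changes of the 2 outcomes ran against each other, with r = -0.28 (Pearson) and rho = -0.26 (Spearman) between FR minus FM and SR minus SM. The 2 changes share no queen, but they share the contigs, the colony term and the scaling, so r is given as a description without a test. It was -0.42 among contigs of at least 5 CPM and -0.31 with each outcome fitted on its own. It stayed between -0.38 and -0.20 when 1 library was left out. Between the colonies, changes of the same outcome ran together, with r = 0.54 between C2 and C3 in failed and 0.47 in successful queens. The 4 pairings of a failed with a successful change gave r between -0.46 and -0.17.

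**Figure D5:**
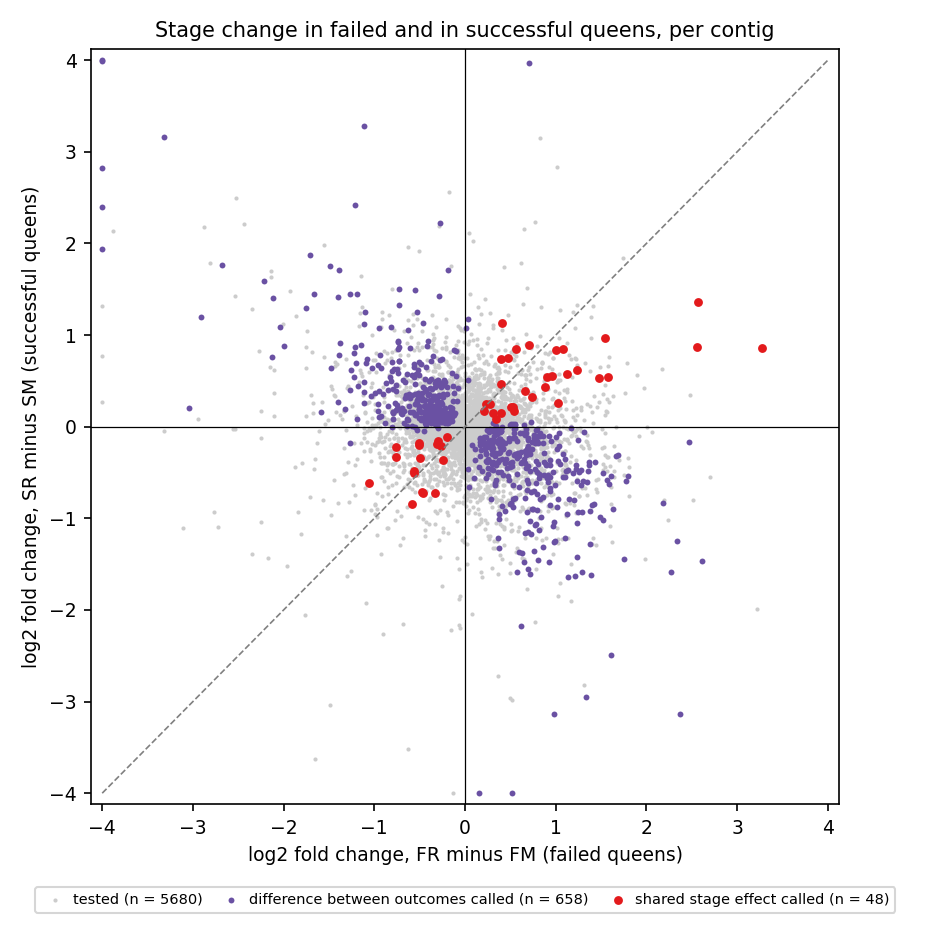
Log2 fold change after minus before hibernation in failed queens (FR minus FM, horizontal) and successful queens (SR minus SM, vertical) of the 5680 tested contigs, with the 48 contigs of the shared effect and the 658 whose change differed in colour. The dashed line marks equal change, 11 contigs beyond 4 are drawn at the edge, and the 48 lie in the quadrants of equal sign while most of the 658 lie in the others.

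The stage change was also compared between the 2 colonies, in a fit of outcome, colony, stage and colony by stage. This fit held no term for the difference between outcomes, called above for 658 contigs, which therefore added to its spread. A lack of calls thus does not show that the colonies changed alike. No contig passed for a difference between C3 and C2: edgeR called 0 of 5680 (0%), with 123 at an unadjusted p of 0.05. DESeq2 called 0 (140 unadjusted) and limma voom 0 (210 unadjusted). The median unadjusted 95% interval of this difference reached 1.30-fold in each direction at 5 CPM or more. It is not a detection limit of the adjusted test, in which larger differences did not pass either. The contigs of lowest p are listed here as values only. Contig792 and Contig62 had a change that was more positive in C3 than in C2, by 1.37 ± 0.44 and 0.43 ± 0.14 on the log2 scale (SE). For Contig3778 and Contig5182 the change was more negative in C3, with C3 minus C2 differences of -0.88 ± 0.23 and -0.78 ± 0.21 (SE), and the edgeR adjusted p was 1.00 for each of the 4.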

How the data were processed

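Individual brains were profiled by poly(A)-selected TruSeq mRNA sequencing (Illumina HiSeq 2000), as stated in the labels' protocols. The authors deposited raw read counts per contig, whole numbers in 1 column per library, per the file headers. FastQC, TopHat, SAMtools and edgeR appear in the submitters' processing notes with no version. Reference build, gene models and counter: not given in the sources used here. Columns outside the series numbered 0. The deposited scaled tables were not used here.

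The 22 libraries of C2 and C3 were passed through filterByExpr by group (minimum count of 10), scaled with TMM and fitted by the robust quasi-likelihood test of edgeR 4.0.16 (R 4.3.3), with Benjamini-Hochberg adjustment over all tested contigs. The model for the shared effect was colony, outcome and stage, and the outcomes were compared in a fit of 4 groups and colony. Of 10672 contigs, 1993 had no read in the 22 libraries. Each SE is the log2 fold change over the root of its F statistic. Level values are CPM after TMM scaling, and TMM factors were 0.823 to 1.12. The fits were also run on simulated counts with set fold changes and no colony effect. The outcome of that run is not given here, and no result rests on it. The named contigs were at most 2 per direction and comparison, with the largest change among called contigs that averaged 5 CPM or more and had the same sign in both colonies, and also in both outcomes for the shared effect. Where too few passed, those of lowest p stand as values. A prior count of 2 was used for log2 CPM in the principal components. Exact tests (scipy 1.17.1) enumerated 48000 orders of stage within colony and outcome, and the smallest p they can give is 4.17e-05. Each library was a separate queen. In a comparison of counts over 231 pairs, chi-square per degree of freedom was at least 79.9, so none was counted as a duplicate. The alternatives included DESeq2 1.42.0, voom of limma 3.58.1 with sample weights, other scalings, filters and models, and each library left out. The comparisons, contigs and alternatives were chosen with earlier results of these data known.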

Additional observations from a re-analysis of the deposited data

Results flagged for a closer look

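In 88 sets of values per group, 9 values, from 6 queens, stood apart from the rest of their group by Dixon's criterion at 95%, which chance meets in about 1 of 20 sets. FR replicate 32 was apart for Contig4971, with 37.9 CPM against 69.6 to 97.2 in the other FR queens. It was also apart on the first principal component, at 0.897 against 29.03 to 42.5, and in the share of reads in the 10 most abundant contigs, at 14.8% against 9.22% to 10.7%. SM replicate 19 had 1839 CPM of Contig735 against 51.01 to 96.6 in the other SM queens, and 15.9% of reads in the 10 most abundant contigs against 8.98% to 10.9%. FM replicate 6 scored -65.0 on the second principal component against -3.16 to 9.70 in the other FM queens. FR replicate 27 had 2.46 CPM of Contig527 against 3.84 to 4.58. Contig5102 had 68.8 CPM in FM replicate 2 against 34.0 to 43.5, and 63.0 CPM in SM replicate 17 against 31.3 to 36.8.

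The stage change differed between the outcomes, by the test of the difference itself, for 658 contigs. Among the named contigs the log2 difference, successful minus failed, was 8.08 for Contig735, 7.11 for Contig5138, -4.12 for Contig2506 and -2.88 for Contig1533.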

How the results depend on the processing

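The shared stage effect, 48 contigs, gave 236 with DESeq2 (all 48 among them), 115 with limma voom, 4 with total counts, 29 without the colony term, 83 as the mean of both outcomes, 0 against a minimum of 1.2-fold (308 unadjusted), 0 in C2 or C3 alone, and 97 and 299 over all 33 libraries with and without colony. The difference between outcomes, 658 contigs, gave 1096 with DESeq2, 2636 with limma voom, 396 without a filter, 49 against 1.2-fold, 1 in C2 or C3 alone and 407 over all 33 libraries. The failed queens' 1219 contigs became 2809 with limma voom, 702 with total counts, 93 against 1.2-fold, 0 in C2 (1545 unadjusted) and 1 in C3. The successful queens' 9 became 116 with DESeq2, 584 with limma voom, 4 without a filter, 17 with 1 CPM in 5 libraries, 4 without the 10 most abundant contigs, 2 against 1.2-fold, 0 in C2 (441 unadjusted), 2 in C3 and 0 over all 33 libraries (594 unadjusted). C7 and C9 gave 60 contigs, or 231 with DESeq2. Fits of only the compared groups, chosen after seeing the data, gave 118 in failed and 48 in successful queens. Some settings hold fewer queens or contigs, and the cause of these shifts was not tested.

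With 1 library left out, the counts ranged from 19 to 128 for the shared effect, 210 to 1432 for the difference, 580 to 1808 in failed queens, 3 to 56 in successful queens, 12 to 55 in C7 and C9, and 0 to 0 for the colony difference (0 also under the other scalings and tools). The stage difference ranged from -17.3 to 2.29 on component 2 and -6.16 to 16.2 on component 3. The component 2 difference, -1.07, was 4.31 with z-scored contigs. Other balances moved by scaling were 41 higher and 16 lower with upper-quartile scaling for the shared effect, and 43 and 11 with total counts in C7 and C9.

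Among named contigs none reversed under any alternative run. The shared calls of Contig527, Contig9195, Contig253, Contig3056 and Contig4971 were lost with total counts, at adjusted p of 0.0656 to 0.119. These calls and that of Contig1083 were lost in either colony alone and against 1.2-fold. Over all 33 libraries with colony, the shared calls of Contig4971 and Contig9195 were lost (edgeR adjusted p = 0.0633 and 0.0960), as were the difference of Contig735, Contig1533 and Contig2506 (0.0769, 0.0658 and 0.0518) and the change in successful queens of Contig5102, Contig2525 and Contig527 (0.119, 0.161 and 0.0856). No paired analysis was possible because replicate numbers are not shared between groups. Total counts were at least 42858092 per library, and how far depth or the spread between queens limits each contig was not tested.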
